A study of Homo sapiens with 9 samples.

Results

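The desmosome is the spot-like adhesive junction that binds the keratin filaments of neighbouring epithelial cells together. The 10 genes described here encode its main parts and were chosen by symbol, from the Ensembl identifiers of the deposited files, as 10 of 78894 identifiers: DSG2 and DSG3, DSC2 and DSC3, PKP1, PKP2 and PKP3, JUP, DSP and PERP. The choice was made with earlier results of these data known. All 10 were found and all 10 passed the filter on low values. RNA was sequenced from CAL27, an established squamous carcinoma line of tongue origin, in 4 groups: Control (3 samples, whose library names begin with WT) and the CRISPR-edited groups A2ko, A8ko and C9ko (2 samples each). No drug or other treatment was given to any group, and all groups share the same serum-containing medium. The series title concerns an enhancer in head and neck carcinoma. The labels name neither the edited sequence nor the guides, do not say whether a knockout group is 1 clone or a pool, and do not say what the Control cells received. Whether samples of a group came from separate cultures is not stated either, so p-values measure only the spread between these samples.

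Values are TPM, a length-corrected share of the library that the authors computed for each gene. TPM keeps no depth, so the depth behind each value is unknown. The A2ko files were identical to each other, as were the A8ko files, and each pair counted as 1 library, leaving 7 distinct libraries. A2ko and A8ko therefore have no replicate, and nothing was tested for either. The libraries held 15556 to 16716 genes at 1 TPM or more, and mitochondrial transcripts took 17.9% to 26.9% of the TPM. A2ko, the library with 16716 genes, summed to 1000129.78 TPM, where the others summed to 1000000 within rounding. The squamous epithelial markers used to check the cells (KRT5, KRT14, TP63, CDH1, EPCAM, KRT6A, SFN) were present in all 7 libraries. Their summed level was 15440 to 16340 TPM in Control and 4881 to 9227 in the knockouts, and the keratins KRT5, KRT14 and KRT6A, which make up most of the sum, were below Control in every knockout library. CDH1 was above Control in every knockout library, SFN and EPCAM were below Control in A2ko and above it in A8ko and C9ko, and TP63 was below it in A2ko and A8ko and above it in C9ko. The part of this in the desmosome differences was not tested. Markers of cardiac muscle, the other tissue rich in desmosomes, summed to at most 0.523 TPM, with MYH6 listed at 0 everywhere. Of the fibroblast markers, COL3A1 was listed at 0 in all 7 libraries and the summed level was 10.6 to 12.1 TPM in Control and 7.36 to 17.6 in the knockouts. Of the leukocyte markers, PTPRC was at most 0.0232 TPM, and the sum, nearly all of it CD68, was 28.1 to 32.5 TPM in Control and 14.3 to 66.5 in the knockouts. Of the endothelial markers, PECAM1 and VWF were at most 0.295 and 0.304 TPM, while CDH5 was at 3.21 to 4.27 TPM in Control and 8.15 to 29.9 in the knockouts.

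In a desmosome, 2 kinds of cadherin, the desmogleins (DSG) and desmocollins (DSC), cross the membrane and bind those of the next cell. Inside the cell the armadillo proteins plakoglobin (JUP) and the plakophilins (PKP) bind the cadherin tails, and desmoplakin (DSP) ties this plaque to keratin filaments. In stratified epithelia DSG3, DSC3 and PKP1 are typical of squamous layers, whereas DSG2, DSC2 and PKP2 also serve simple epithelia and, in the heart, the intercalated disc. PERP is a tetraspan membrane protein of stratified epithelia and a target of the p53 family.

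In Control CAL27 cells JUP, PERP, DSP, PKP1 and PKP3 stood above the cadherins, and PKP2 stood below DSC3, DSG2 and DSG3. The order of mean TPM was JUP at 429, PERP at 384, DSP at 173, PKP1 at 171, PKP3 at 117, DSC3 at 39.5, DSG2 at 37.7, DSG3 at 37.0, PKP2 at 18.5 and DSC2 at 8.65. The ranges over the 3 Control libraries overlapped between JUP and PERP, between DSP and PKP1, and between DSG2 and DSG3. Within each Control library JUP stood above PERP, whereas DSP and PKP1, and DSG2 and DSG3, changed order between libraries. The 10 genes together held 1364 to 1447 TPM in Control, against 1068 (A2ko), 885.8 (A8ko), 1008 and 1071 (C9ko). In a bulk sample, fewer cells with a transcript and less of it per cell cannot be told apart.

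The knockouts carried less RNA of 6 desmosome genes, PKP1, DSG3, DSP, DSC2, DSC3 and JUP, than Control. For these 6, every knockout library lay below every Control library, and no member lay above, where 4.61% of the 17100 tested genes lay below and 17% above. PKP2 and DSG2 had knockout libraries on both sides of Control. In C9ko, the group with 2 distinct libraries, limma called 6 of the 10 members at an adjusted p under 0.05, all 6 lower. Over all tested genes it called 29.5%, 7.42% lower and 22% higher. The members were chosen with earlier results of these data known. The shares of all genes beside their counts are therefore a description and not a test of the list. With each knockout group as 1 value against the 3 Control libraries, limma called 2 of the 10, DSP and PKP1, both lower, against 1.03% of all genes, with 0.52% lower and 0.509% higher. As a count without a test, 4 members in A2ko and 7 in A8ko lay outside the Control range and at least 1.5-fold below its mean, where the shares of all genes were 4.82% and 6.81%. None lay that far above, where the shares were 12.6% and 7.39%. Held against the other Control libraries in the same way, no Control library had any such member, where the shares of all genes were 1.25%, 1.3% and 1.11% lower and 1.27%, 1.15% and 1.48% higher for Control 1, 2 and 3. The median log2 difference of the 10 members came to -0.44 (A2ko), -0.77 (A8ko) and -0.36 (C9ko), beside medians over all tested genes of 0.12, 0.09 and 0.11. These all-gene medians went to -0.03, 0.02 and 0.00 when libraries were scaled by the median of ratios, and every member difference was lower on that scale. The same scaling took the higher share of all C9ko calls from 74.8% to 56.1%, and that of the calls over all knockouts from 49.4% to 27.8%. Log2 differences are on the log2(TPM + 1) scale throughout, which understates changes of weakly expressed genes.

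**Figure D1:**
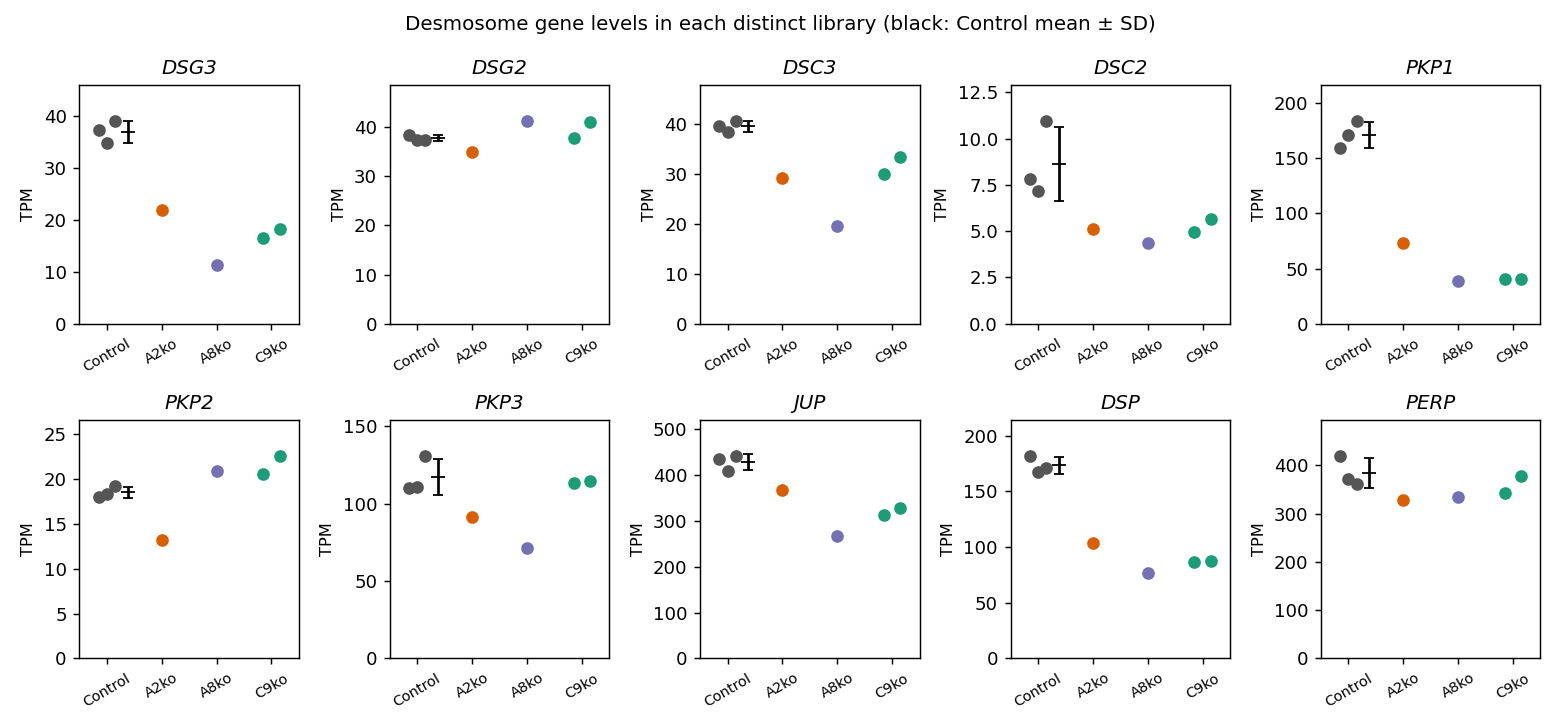
TPM of each desmosome gene in the 7 distinct libraries, with 1 point per library on linear axes from 0 and the Control mean ± SD (n = 3) in black. PKP1, DSG3 and DSP stand well below Control in every knockout (PKP1 at 38.7 to 73.6 TPM against 159 to 184), while DSG2 stays between 34.9 and 41.1 TPM in all 7 libraries.

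The desmogleins parted. DSG3, the desmoglein of the lower squamous layers and the target antigen of pemphigus vulgaris, read 37.3, 34.7 and 39.0 TPM in the Control libraries, against 21.9 (A2ko), 11.3 (A8ko), 16.6 and 18.2 (C9ko). All knockout libraries were below all Control libraries, A8ko lowest. DSG3 fell by 1.05 log2 units in C9ko (SE 0.08, limma adjusted p 0.000188), and its difference was -0.73 in A2ko and -1.62 in A8ko. Over all knockouts the estimate was -1.13 (SE 0.22), with a limma adjusted p of 0.0736. DSG2, the desmoglein found in nearly every tissue with desmosomes, read 38.4, 37.4 and 37.3 TPM in the Control libraries, against 34.9 (A2ko), 41.1 (A8ko), 37.8 and 41.0 (C9ko). Its C9ko libraries overlapped Control, with a difference of 0.06 (95% interval -0.10 to 0.22, limma adjusted p 0.520) that turned to -0.06 under median-of-ratios scaling. DSG2 made up 48.9% to 51.8% of the TPM of the pair in Control, against 61.4% (A2ko), 78.4% (A8ko), 69.5% and 69.3% (C9ko). The sum of both desmogleins came to 74.7 ± 2.27 TPM in Control (SD, n = 3), against 52.5 to 59.2 in the knockouts.

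DSG3 and DSG2 lie on the same strand of chromosome 18, with starts 50.2 kb apart, so the stretches before their starts are shown as the immediate sequence around a member that fell in C9ko and an adjacent one that was not called. Sequences are from RefSeq's GRCh38.p14 table, on the plus strand, 5′ to 3′, and end before the first start in either RefSeq or GENCODE. Capitals mark matches, on either strand, to ACAANG (a core bound by SOX factors), GGGCGG (the GC box of Sp and KLF factors) or GCCNNNGGC (AP-2). The DSG3 stretch is chr18:31447491-31447740 and the DSG2 stretch chr18:31497927-31498042.
DSG3: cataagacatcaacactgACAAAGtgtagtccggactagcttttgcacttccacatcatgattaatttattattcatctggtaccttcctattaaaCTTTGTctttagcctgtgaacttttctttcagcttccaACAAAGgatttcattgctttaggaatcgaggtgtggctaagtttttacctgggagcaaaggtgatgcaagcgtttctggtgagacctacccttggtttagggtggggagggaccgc
DSG2: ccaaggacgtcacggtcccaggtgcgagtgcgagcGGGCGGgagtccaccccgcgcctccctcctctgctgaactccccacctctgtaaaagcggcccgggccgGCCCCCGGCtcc
The 250 bases before the RefSeq start were 42.8% G or C for DSG3 and 75.2% for DSG2, where the median over all promoters of the table was 58%. ACAANG matched 3 times in that window of DSG3 and not in that of DSG2. Of all 35116 windows of this length, of any G and C content, 30.9% held at least 1 match, and 1.37% held 3 or more. Of the other members called lower in C9ko, DSC3 and the first DSC2 window had 1 match. The second DSC2 window and those of DSP, PKP1 and JUP had none. GGGCGG, present in 42.6% of windows, matched 2 times for DSG2 and not for DSG3, and GCCNNNGGC, present in 19.8%, matched 1 time for DSG2. TGANTCA (AP-1, 6.57% of windows) and AACCNGTT (Grainyhead-like factors, 1.49%) matched neither. The window of DSG2 reaches past the printed end, so 1 of its GGGCGG matches is not shown, and a match describes the letters only.

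The desmocollins were both lower. DSC3, the main desmocollin of squamous cells, read 39.6, 38.4 and 40.5 TPM in the Control libraries, against 29.3 (A2ko), 19.6 (A8ko), 30.1 and 33.4 (C9ko). The groups did not overlap, and A8ko was again lowest. DSC3 fell by 0.31 log2 units in C9ko (SE 0.07, limma adjusted p 0.0191), and its difference was -0.42 in A2ko and -0.98 in A8ko. DSC2, the more widespread desmocollin, was the member with the lowest level, at 7.84, 7.18 and 10.9 TPM in the Control libraries, against 5.09 (A2ko), 4.34 (A8ko), 4.97 and 5.63 (C9ko). Control 3 stood above the other Control libraries, and no knockout library reached the lowest of them. DSC2 fell by 0.60 in C9ko (SE 0.17, limma adjusted p 0.0379), and its difference was -0.64 in A2ko and -0.83 in A8ko. Neither desmocollin passed over all knockouts, with limma adjusted p-values of 0.198 for DSC3 and 0.137 for DSC2. The C9ko calls of both, though not their direction, depended on single libraries. DSC2 lost its call without Control 1 (adjusted p 0.0606), C9ko 1 (0.138) or C9ko 2 (0.0747), and DSC3 without Control 1 (0.0508), Control 3 (0.0620) or C9ko 1 (0.112). Over all fits that left out 1 library the difference was -0.71 to -0.43 for DSC2 and -0.38 to -0.23 for DSC3. DSC3 made up 78.8% to 84.3% of the TPM of the pair in Control, against 85.2% (A2ko), 81.8% (A8ko), 85.8% and 85.6% (C9ko). A8ko lay inside the Control range, and the A2ko and C9ko libraries lay above it. These shares were not tested.

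The plakophilins, which bind the cadherin tails and desmoplakin sideways in the plaque, held the member with the largest difference. PKP1, the plakophilin of the squamous layers, read 159, 171 and 184 TPM in the Control libraries, against 73.6 (A2ko), 38.7 (A8ko), 40.9 and 40.5 (C9ko). Every knockout library was under the lowest Control library, at 43.0% of the Control mean in A2ko, 22.6% in A8ko and 23.8% in C9ko. PKP1 fell by 2.04 log2 units in C9ko (SE 0.07, limma adjusted p 1.63e-05) and by 1.79 over all knockouts (SE 0.24, limma adjusted p 0.0276). Its difference was -1.20 in A2ko and -2.12 in A8ko.

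PKP2, the plakophilin of simple epithelia and heart, read 17.97, 18.34 and 19.18 TPM in the Control libraries, against 13.2 (A2ko), 20.9 (A8ko), 20.6 and 22.5 (C9ko). A2ko was below all Control libraries, and the A8ko and C9ko libraries were above them. The C9ko difference was 0.21 (95% interval 0.03 to 0.39 before adjustment over genes, limma adjusted p 0.0782), and it was -0.46 in A2ko and 0.17 in A8ko. PKP2 was called higher in C9ko (limma adjusted p 0.0108) when the identical files were entered as separate libraries, which counts the same values again. PKP3, which is present in most epithelial desmosomes, read 110.0, 111 and 131 TPM in the Control libraries, against 91.2 (A2ko), 71.3 (A8ko), 114 and 115 (C9ko). The C9ko libraries lay inside the Control range (difference -0.03, 95% interval -0.24 to 0.18, limma adjusted p 0.822), whereas A2ko and A8ko were below that range, at -0.35 and -0.70 from the Control mean.

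**Figure D2:**
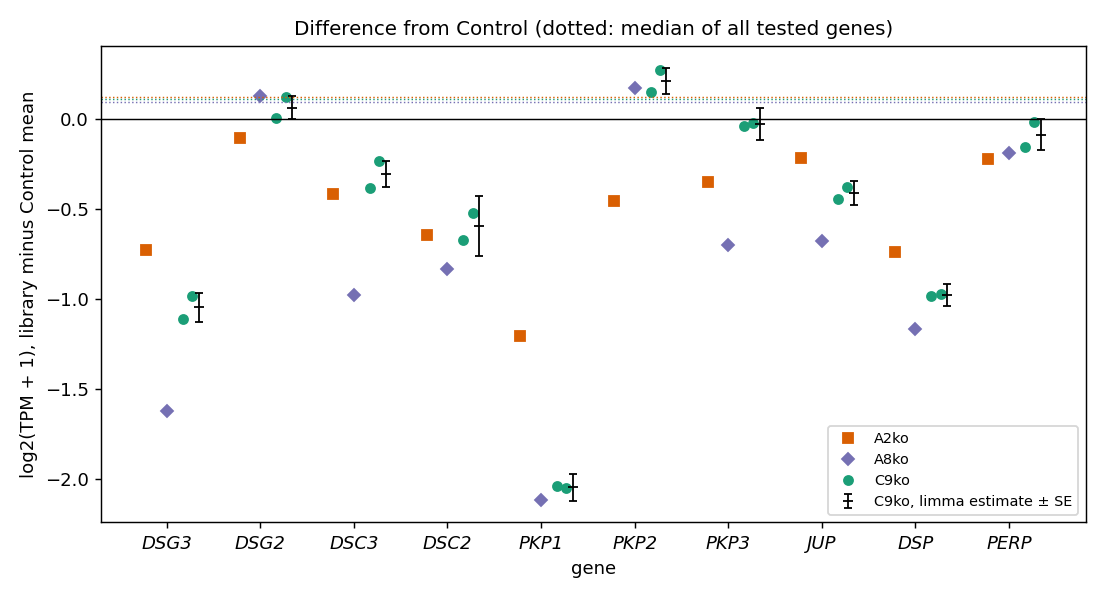
Log2(TPM + 1) of each knockout library minus the Control mean, by gene, with the C9ko estimate ± SE in black and dotted lines at the medians of all tested genes (0.12 in A2ko, 0.09 in A8ko, 0.11 in C9ko). PKP1 reaches -2.12 in A8ko and -2.04 in C9ko, and DSG2 and PKP2 are the members with values above 0; that of DSG2 in C9ko falls below 0 under median-of-ratios scaling.

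The plakophilin makeup of every knockout library lay outside the Control range. PKP1 was 55.0% to 57.0% of the summed TPM of the 3 plakophilins in Control, against 41.3% (A2ko), 29.6% (A8ko), 23.4% and 22.7% (C9ko). PKP3 held 36.9% to 39.2% in Control, against 51.2% (A2ko), 54.5% (A8ko), 64.9% and 64.6% (C9ko), and so was the most abundant plakophilin in every knockout library. PKP2 was 5.75% to 6.26% in Control, against 7.42% (A2ko), 16.0% (A8ko), 11.7% and 12.7% (C9ko). The sum itself came to 307 ± 24.0 TPM in Control (SD, n = 3), against 131 to 178 in the knockouts. These shares are ratios within a library, so scaling does not move them, and they were not tested.

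**Figure D3:**
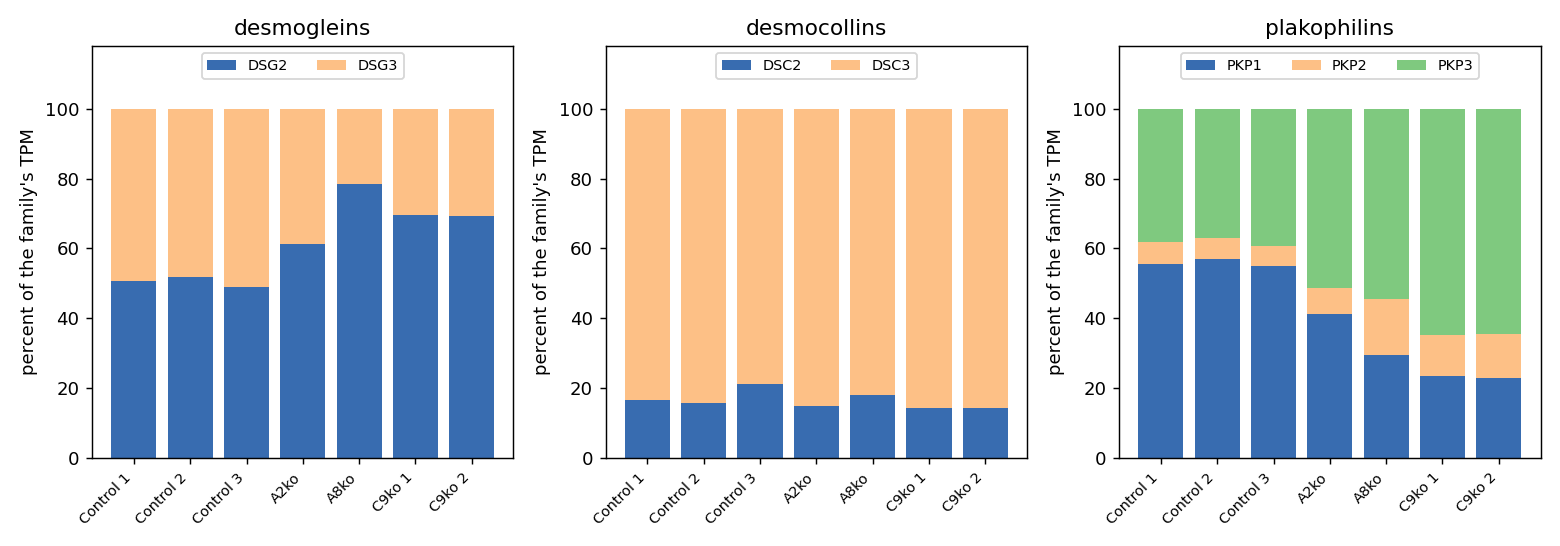
Share of each gene in the TPM of its family, in percent, for the 7 distinct libraries (stacked bars adding to 100). The share of DSG2 in the desmogleins is 48.9% to 51.8% in Control and 61.4% to 78.4% in the knockouts, beside a level of 34.9 to 41.1 TPM throughout. That of PKP1 in the plakophilins is 55.0% to 57.0% in Control and 22.7% to 41.3% in the knockouts. DSC3 holds 78.8% to 85.8% of the desmocollins in all 7 libraries.

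DSP and JUP, which join the cadherins to keratin, both fell in C9ko. DSP, desmoplakin, the obligate link to the filaments, read 182, 167 and 171 TPM in the Control libraries, against 103 (A2ko), 76.5 (A8ko), 87.0 and 87.9 (C9ko). The 4 knockout libraries were at or under 59.7% of the Control mean. DSP fell by 0.98 log2 units in C9ko (SE 0.06, limma adjusted p 0.000101) and by 0.96 over all knockouts (SE 0.12, limma adjusted p 0.0269). Its difference was -0.74 in A2ko and -1.17 in A8ko. JUP, plakoglobin, which also joins adherens junctions, read 436, 408 and 441 TPM in the Control libraries, against 367 (A2ko), 267 (A8ko), 314 and 328 (C9ko). Its mean was the highest of the members in Control, with a range that overlapped that of PERP, and all knockout libraries were below all Control libraries. JUP fell by 0.42 in C9ko (SE 0.07, limma adjusted p 0.00428), and its difference was -0.22 in A2ko and -0.68 in A8ko. Over all knockouts its estimate was -0.44 (SE 0.13, limma adjusted p 0.185). The DSP and PKP1 calls over all knockouts were lost in each fit that left out Control 1, 2 or 3, with adjusted p-values of 0.172 to 0.184 for DSP and 0.181 to 0.192 for PKP1. They were lost too without C9ko (0.0741 and 0.0787), and that of PKP1 without A8ko (0.0552).

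The stretch before DSP is shown because the gene DSP-AS1, which starts beside it, also fell in C9ko. It runs at chr6:7541421-7541574 on the plus strand (RefSeq, GRCh38.p14), with capitals marking GGGCGG on either strand.
DSP: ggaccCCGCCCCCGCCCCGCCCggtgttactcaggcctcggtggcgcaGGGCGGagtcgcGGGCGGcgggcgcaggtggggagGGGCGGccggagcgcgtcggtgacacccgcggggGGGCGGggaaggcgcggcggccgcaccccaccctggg
The 250-base window of DSP held 7 GGGCGG matches, a number that 1.12% of all windows, of any G and C content, reach. It was 78.0% G or C, where the median over all promoters was 58%. The window of PERP, which was not called, held 5 matches at 77.2%. Those of DSG3 and DSC3, both called lower in C9ko, had no match. DSP-AS1, a transcript of the opposite strand at 7540451 to 7541338 on chromosome 6, does not overlap DSP in GENCODE. It was at 3.96 TPM on average in Control, and it fell by 0.68 log2 units in C9ko (limma adjusted p 0.0262), with differences of -0.51 in A2ko and -0.96 in A8ko.

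PERP read 419, 371 and 361 TPM in the Control libraries, against 328 (A2ko), 335 (A8ko), 343 and 378 (C9ko). Control 1 was the highest, and 1 C9ko library overlapped Control. The difference was -0.09 in C9ko (95% interval -0.30 to 0.12, limma adjusted p 0.477) and -0.17 over all knockouts (limma adjusted p 0.448). After scaling by the median of ratios, all knockout libraries of PERP and PKP3 also lay below all Control libraries, which raised the number of such members to 8, where 9.67% of all genes did.

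Per the labels the build was hg38, and positions are those of GENCODE on GRCh38, where all 10 members are protein-coding genes. The members outside chromosome 18 are scattered. PKP1 (ENSG00000081277) lies on chromosome 1 at 201283452 to 201332993, PKP2 (ENSG00000057294) on chromosome 12 at 32790745 to 32896840 and PKP3 (ENSG00000184363) on chromosome 11 at 392614 to 404908. JUP (ENSG00000173801) lies on chromosome 17 at 41754604 to 41786931. DSP (ENSG00000096696) and PERP (ENSG00000112378) are both on chromosome 6, at 7541575 to 7586717 and at 138088505 to 138107511. The 4 cadherin genes share a 559 kb stretch of chromosome 18, with DSC3 (ENSG00000134762, 30990008 to 31042815) and DSC2 (ENSG00000134755, 31058840 to 31102522) on the minus strand and DSG3 (ENSG00000134757, 31447795 to 31478702) and DSG2 (ENSG00000046604, 31498043 to 31549008) on the plus strand. DSC1, DSG1 and DSG4, their sister genes, were below the filter: DSG1 was at 0.244 to 0.345 TPM in Control and listed at 0 in all knockout libraries, DSC1 was at most 0.222 TPM, and DSG4 was listed at 0 in 6 of 7 libraries. Within 500 kb of the DSG2 start, the 3 tested genes that are not members (B4GALT6, TRAPPC8 and 1 identifier without a symbol) were not called in C9ko, with a median of -0.02. Around all members, 100 such neighbours were tested. In C9ko 14 were called lower and 19 higher, where 7.42% and 22% of all tested genes were, with a median difference of 0.02. For 18 of the 100 every knockout library lay below every Control library, and for 9 above, where 4.61% and 17% of all tested genes did. Those below were 5 of 8 around DSP, 7 of 28 around JUP, 5 of 44 around PKP3 and 1 of 8 around PKP1. The 7 around JUP were all keratin genes (KRT9, KRT13, KRT14, KRT15, KRT16, KRT31 and KRT32). Of the 14 called lower in C9ko, 7 lay around JUP. These were KRT13, KRT14, KRT15, KRT16, KRT19, KRT32 and MIR6510, which lies among these keratins. DSG2-AS1 and DSCAS, antisense transcripts that overlap DSG2 and DSC2, were at most 0.435 TPM. The libraries keep strand (dUTP method, per the labels), but the use of strand in counting is not given in the sources used here.

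For each member called in either fit, the 3 genes most like it in pattern were found by the root mean square difference of log2(TPM + 1) minus the Control mean over the 7 libraries, among 10958 genes with a mean of at least 5 TPM. For DSP they were P2RY2 (0.07 log2 units), KRT10 (0.09) and S100A4 (0.10). For DSG3 they were ZNF488 (0.10), SLC47A2 (0.15) and TMPRSS4 (0.18). The matches of PKP1 were an identifier without a symbol (0.19), IGFL1 (0.23) and S100A14 (0.24). JUP was matched by HS6ST1 (0.04), RARG (0.05) and TRAFD1 (0.05), DSC3 by ACSL1 (0.08), MCC (0.10) and RHBDL2 (0.10), and DSC2 by HSPB1 (0.10), SREBF1 (0.13) and LPAR6 (0.14). Among the members themselves, DSC3 and JUP were the closest pair (0.15), followed by DSG2 with PERP and with PKP2 (both 0.16) and DSP with DSG3 (0.18).

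Several genes of the adherens junction, the other cadherin junction of epithelia, rose in C9ko. Of 9 adherens junction genes, all tested, C9ko had 5 called higher and 2 lower, where 22% and 7.42% of all tested genes were. The list median was 0.28, beside 0.11 over all tested genes. The 5 were CTNNB1 (β-catenin, 1.28), CDH3 (P-cadherin, 0.79), CDH1 (E-cadherin, 0.74), VCL (vinculin, 0.66) and CTNNA1 (α-catenin, 0.28), with limma adjusted p-values from 8.21e-05 to 0.0252, and all 5 stayed above 0 under both other scalings. CDH1 read 105, 100.3 and 106 TPM in the Control libraries, against 138 (A2ko), 141 (A8ko), 170 and 177 (C9ko), so that every knockout library was above Control where those of DSG3 and DSP were below. The nectins were the 2 lower genes, NECTIN1 by -0.81 and NECTIN4 by -0.36. NECTIN1 was also called over all knockouts (-0.74, limma adjusted p 0.0432), where no gene of the list was called higher. Every knockout library lay above every Control library for 4 genes (CDH1, CDH3, CTNNB1 and VCL). They lay below for 3 (NECTIN1, NECTIN4 and CTNND1). The shares of all tested genes were 17% and 4.61%. No gene of the list was at least 1.5-fold above the Control mean in A2ko or A8ko. Of 8 further desmosomal and linker genes 4 were tested, and C9ko had 1 called, PPL (periplakin, a plakin that binds keratin), which fell by 0.47 (limma adjusted p 0.00854). PKP4, a relative of the plakophilins, was at 0.18 (limma adjusted p 0.222), and CDSN, the corneodesmosin of cornified layers, was listed at 0 in all libraries. The lists were not tested as sets.

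Keratins, the filaments that desmoplakin holds, changed in both directions: of 6 tested, 3 were called lower in C9ko, 2 higher and KRT17 was not called. Over all tested genes 7.42% were called lower and 22% higher. In C9ko KRT14 fell by 1.61 log2 units (limma adjusted p 8.16e-05), KRT6A fell by 1.401 (3.48e-05) and KRT5 fell by 0.74 (0.00119). KRT18 and KRT8, the keratins of simple epithelia, rose by 1.29 and 1.19 (limma adjusted p 6.1e-05 and 0.000127). The knockouts differed in these genes: KRT18 and KRT8 were at -0.04 and -0.06 in A2ko, and at 1.05 and 0.42 in A8ko. KRT17 was at 0.65 in A2ko and -1.185 in A8ko. KRT5 and KRT6A were below Control in every knockout library. KRT14 was at 3549 to 4286 TPM in Control, against 313 (A2ko), 867 (A8ko), 1283 and 1247 (C9ko), so A2ko was lowest for KRT14 and highest among the knockouts for DSP, DSG3 and PKP1. KRT6A and KRT14 have closely similar relatives, and how reads were divided among them is not known. The part of this shift in keratin levels in the desmosome differences was not tested.

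Among 10 epithelial transcription factors, 9 were tested and C9ko had 3 called lower and 3 higher, where 7.42% and 22% of all tested genes were. ZNF750, a factor of epidermal differentiation, fell by 1.47 (limma adjusted p 6.14e-05), from 14.1 to 14.5 TPM in Control to 4.69 and 4.31. It was at 8.82 TPM in A2ko and 1.46 in A8ko, the same order of the 3 knockouts as for DSG3, DSP, PKP1 and JUP. The means of DSC2 and DSC3 ran in another order, with C9ko above A2ko. No order was tested, and A2ko and A8ko have 1 distinct library each. GRHL3, a Grainyhead-like factor of epidermal differentiation, fell by 0.50 (limma adjusted p 0.0434) and ran in another order, with 1.84 to 2.24 TPM in Control, against 0.108 (A2ko), 0.288 (A8ko), 1.08 and 1.16 (C9ko). KLF5 fell by 0.84 (limma adjusted p 0.000127) and had the same order of knockouts as ZNF750. It read 112.6, 113.1 and 117.7 TPM in Control, against 99.1 (A2ko), 53.0 (A8ko), 62.7 and 64.0 (C9ko). TP63, the master factor of stratified epithelia, was at 271 to 296 TPM in Control, against 194 (A2ko), 265 (A8ko), 308 and 313 (C9ko) (limma adjusted p 0.144). OVOL1, KLF4 and GRHL1 rose in C9ko by 1.13, 0.64 and 0.55.

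**Figure D4:**
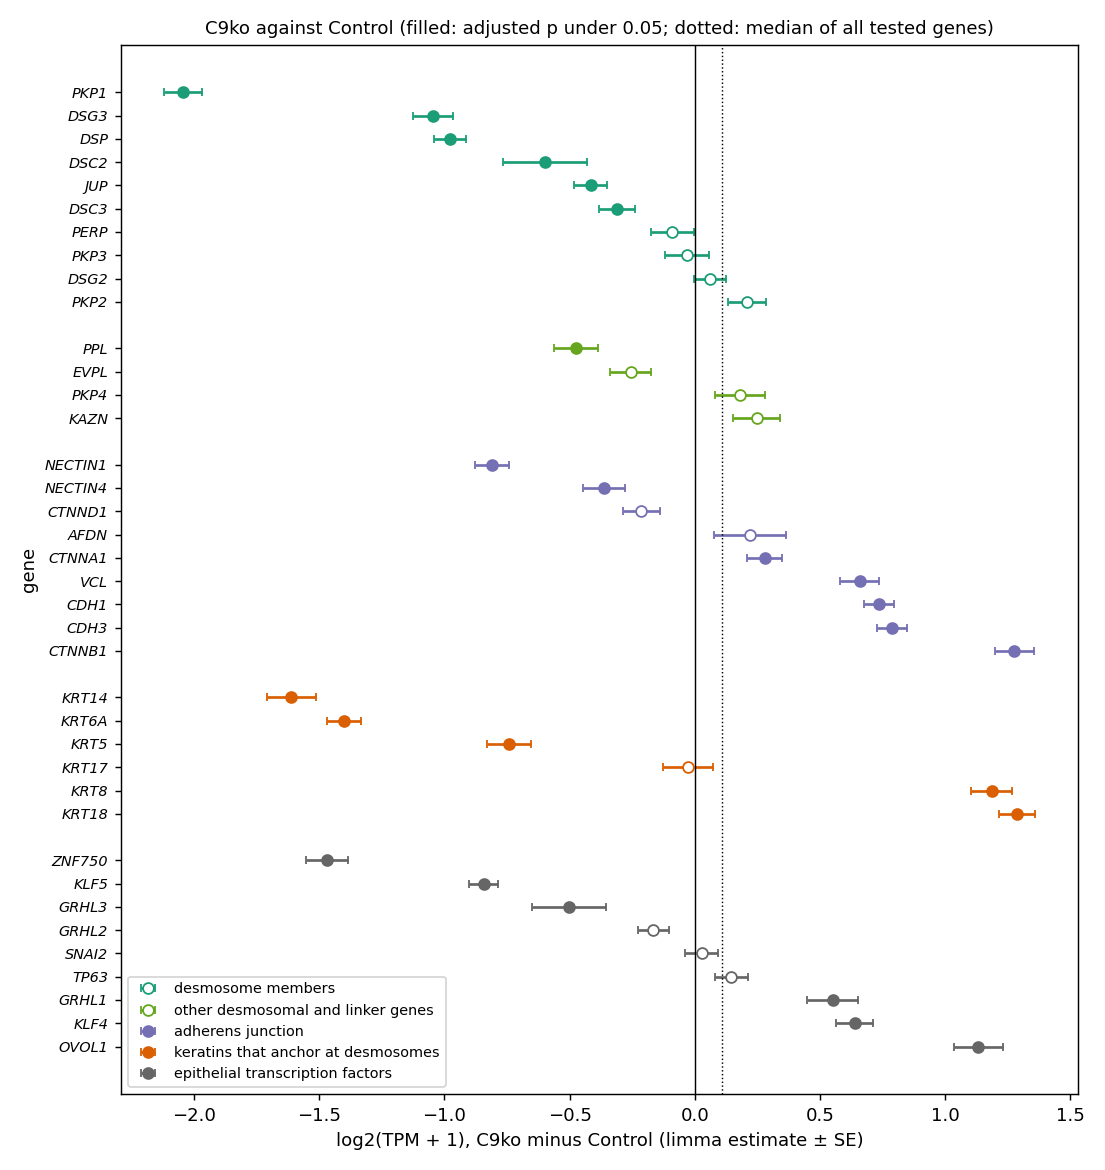
C9ko minus Control in log2(TPM + 1), limma estimate ± SE, for the desmosome members and 4 lists of related genes; filled points have an adjusted p under 0.05 and the dotted line is the median of all tested genes (0.11). Of the desmosome members 6 are filled and all 6 lie left of 0. Of 9 adherens junction genes 5 are filled on the right and 2 on the left.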

How the data were processed

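RNA from 9 CAL27 samples was sequenced as polyA libraries made by the dUTP method, per the labels' protocols. The authors deposited 1 TPM value per Ensembl identifier and sample; the build is hg38 per the submitters' processing notes, and the aligner, quantifier and annotation are not given in the sources used here. Groups came from sample titles. Both A2ko files carry the same column header and values, as do both A8ko files, and each pair counted as 1 library. Symbols were found for 61463 of 78894 identifiers, positions (GENCODE 29) for 57342. Values were analysed as log2(TPM + 1). The 17100 genes with at least 1 TPM in at least 2 distinct libraries were tested with limma 3.58.1 in R 4.3.3 (eBayes with trend, Benjamini-Hochberg over all tested genes), checked on simulated data. C9ko was a contrast in a fit of all 4 groups; for all knockouts, 3 group means were set against 3 Control libraries. All members are described, other lists by counts, and called genes of the lists with values. Promoters came from RefSeq (GRCh38.p14), for 8 of 10 members, not PKP2 or PKP3. Members and lists were chosen with earlier results of these data known.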

Additional observations from a re-analysis of the deposited data

Results flagged for a closer look

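PKP2 and DSG2 are listed here because knockout groups stood on opposite sides of the Control libraries. For PKP2 the A2ko library was below all Control libraries and the A8ko and C9ko libraries were above them, and its knockout groups spanned 0.6644 log2 units. For DSG2 A2ko was below and A8ko above all Control libraries, with C9ko overlapping them, and its groups spanned 0.2313 log2 units. The sides were the same under median-of-ratios scaling and with mitochondrial genes removed. The difference was not tested, there being a single distinct library for A2ko and for A8ko.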

How the results depend on the processing

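In C9ko against Control, PKP1, DSG3 and DSP were called, and lower, under all 14 alternatives, and JUP under 13. The number of members called was 6, and 3 with the replicate block (PKP1, DSG3 and DSP), where JUP, DSC2 and DSC3 had adjusted p-values of 0.0627, 0.0608 and 0.128. Control 3 has no C9ko library of its number, so the block gave every member the same estimate as the fit without Control 3. The SEs were larger with the block, and it is not a separate check. The number was 4 without the filter on low values, 5 without the trend, 7 with all files as separate libraries (PKP2 called higher), and 4 to 6 when 1 library was left out. Same-numbered Control and C9ko libraries had deviations correlated at -0.05 and -0.01. The deviations of the 2 C9ko libraries mirror each other, so these values cannot decide whether replicate numbers pair the samples. Without the filter on low values DSC2 (0.203) and DSC3 (0.0648) also missed the threshold, and DSC2 without the trend (0.0577). Over all knockouts the number called was 2. It was 0 without the filter on low values (23 of 42643 genes called, 3850 at an unadjusted p under 0.05), 7 with the knockouts averaged inside the 4-group fit (4361 genes called), and 0 to 4 when 1 library or group was left out. There, leaving out Control 1, 2 or 3 left 11, 5 and 5 of all genes called (1769, 1515 and 1687 at an unadjusted p under 0.05), leaving out C9ko 75 and leaving out A2ko 2002. At least 2-fold, in place of 1.5-fold, left 1 member in A2ko (PKP1) and 3 in A8ko (PKP1, DSG3 and DSP). Without A2ko, PKP2 was above all Control libraries, so that the number of such members ranged from 0 to 1. Signs turned for uncalled differences only. For DSG2 these were C9ko under median-of-ratios scaling (-0.0592) and with mitochondrial genes removed (-0.03742), and all knockouts under the same settings (-0.0977 and -0.02711) and over leave-outs (-0.02407 to 0.09157). PKP3 in C9ko was at 0.05067 with the replicate block and -0.07372 to 0.05067 over leave-outs, and PKP2 over all knockouts at -0.144 to 0.1883 over leave-outs. Depth is unknown, so what it limits could not be measured.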
